A study of Mus musculus with 18 samples.

Results

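The genes described here build or switch on the axoneme, the microtubule core of motile cilia and sperm flagella. They were chosen by symbol from a table of mouse cochlear RNA. A gene entered when its symbol began with Dnah, Dnai, Dnal, Dnaaf, Rsph, Tekt or Cfap followed by the number or letter of the family, and 6 genes were added by name (Foxj1, Ccdc108, Armc4, Wdr63, Ttc29 and Ccdc153). The rule took 62 of the 46583 rows of the table, 56 by symbol pattern and 6 by name, which carry 60 different symbols. The members were proposed because of how their levels differed between the 6 sample groups. Their levels, differences and calls are therefore given as a description, and no p-value is given for them.

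RNA came from the cochlea of 4-week-old mice, cut along its frequency axis into base, middle and apex. Control mice, labelled WT and untreated, were set beside mice in which Fst was conditionally knocked out (cKO). Fst encodes follistatin, a secreted antagonist of activins. The Cre driver, the floxed allele, the genotype of the controls at these loci and the number of animals are not given in the sources used here. For each genotype, a region's tissue was combined into 1 RNA pool, and 3 technical libraries were made from that pool, giving 6 groups and 18 libraries. Each difference between groups is thus a difference between 2 pools, and every error below is the spread of technical libraries, not of animals.

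In the axoneme, outer and inner rows of dynein arms on the microtubule doublets produce the sliding that bends a cilium. Radial spokes link the doublets to a central pair, tektins lie along the doublets, and preassembly factors build the arms in the cytoplasm before they are carried in. Foxj1 is the transcription factor known to switch on many of these genes in cells that make motile cilia. In the mouse cochlea, supporting cells carry a primary cilium, and hair cells have a kinocilium, which also holds an axoneme, until they mature. Cells with many motile cilia line the airways, parts of the middle ear and the ventricles of the brain.

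The libraries held between 24446760 and 33732726 counts each (median 28749804), and 3 counts in a library corresponded to 0.0889 to 0.123 counts per 1000000 counts (CPM). Fst stood at 24.4 ± 0.882 CPM (SD, n = 3 libraries) in control apex and 9.84 ± 0.395 in cKO apex, at 6.37 ± 0.573 and 2.99 ± 0.348 in the middle, and at 2.17 ± 0.211 and 1.86 ± 0.122 in the base. Hair cell transcripts were present in every group, with Myo7a, a hair cell myosin, at 28.8 to 60.4 CPM. Xist, expressed from the inactive X chromosome of females, stood at 297 to 371 CPM in the control groups and at 58.8 to 87.5 CPM in the cKO groups. The Y-linked gene Ddx3y stood at 44.3 to 55.2 CPM in the control groups and at 78.9 to 84.8 in the cKO groups. Every comparison of genotypes below therefore also compares pools that differ in their share of male and female RNA, and genotype and sex cannot be told apart.

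The members together made up a small share of the RNA. Their counts were 0.0311% of a library in the lowest library (exact 95% binomial interval 0.0304% to 0.0318%) and 0.0376% in the highest (0.0369% to 0.0384%). These intervals, like all count intervals below, cover counting error only. A few members supplied most of this. Cfap36 alone averaged 52.2 CPM over the 18 libraries, followed by the dynein light chain gene Dnal1 (35.2), Cfap97 (34.9), Cfap20 (33.0), the light chain gene Dnal4 (26.4) and the dynein assembly factor gene Dnaaf5 (23.2), and these 6 genes held 60.1% of the members' CPM. The next by level were Cfap44, Foxj1, Dnaaf2, Cfap43, Rsph9, Rsph3a, Dnah7b, Rsph3b and Tekt1, and the first 15 held 84.3%. Per length of transcript, in the authors' FPKM, Cfap36 (36.3), Cfap20 (29.6), Dnal4 (20.6) and Rsph9 (11.7) led, while the median over the 62 rows was 0.363 FPKM.

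At the other end, 30 of the 62 rows averaged under 1 CPM, and 53 of the 62 passed the filter on low counts that the fit used. The 9 rows that did not pass were 2 of the 3 listed as Dnah14, and Tekt3, Tekt4, Rsph6a, Rsph14, Cfap221, Cfap58 and Dnah12. Tekt4 (55 counts over all libraries) and Rsph14 (41) were the rows nearest below the filter by total count, and Ccdc153 (74) and Dnaaf1 (87) those nearest above it. Ccdc153 passed through a single group: 65 of its 74 counts were in cKO apex. A row that passes only where it is high had to differ, so the counts of called members below are not a share of all members.

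**Figure D1:**
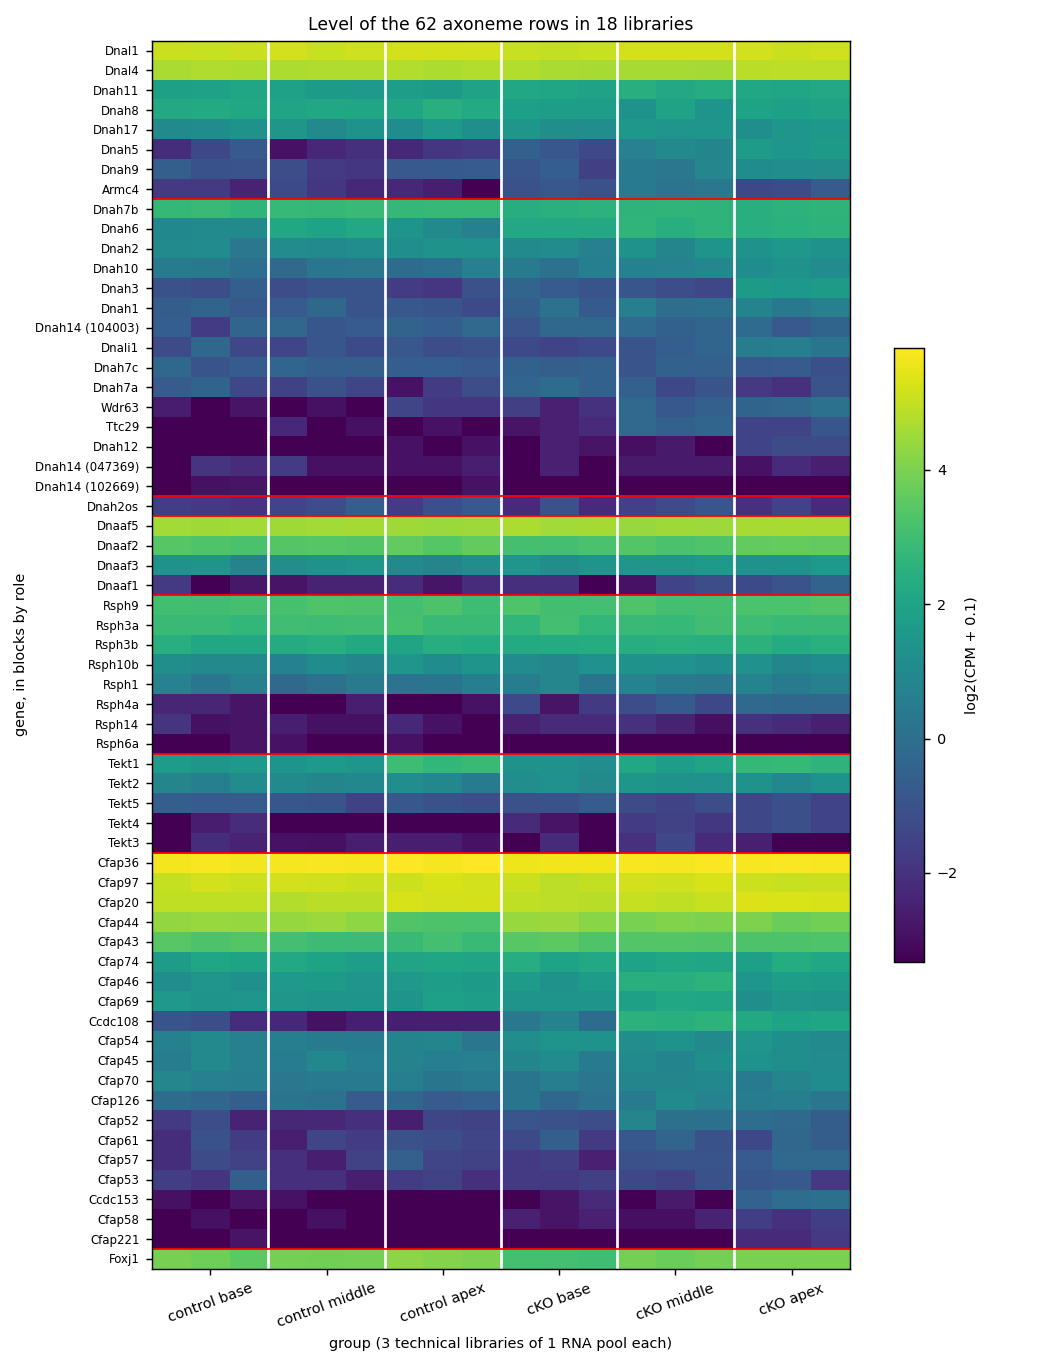
Level of the 62 member rows (vertical axis, in blocks by role) in the 18 libraries (horizontal axis, 3 technical libraries a group), as log2(CPM + 0.1) in colour. Cfap36, Cfap20, Dnal1 and Dnal4 are bright in all libraries, whereas Ccdc108, Dnah5 and Rsph4a are dark in the control libraries and lighter in cKO middle and apex.

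The summed level of all 62 rows in the control pools was 326 ± 4.68 CPM at the base, 329 ± 2.68 in the middle and 339.9 ± 3.79 at the apex (SD, n = 3 technical libraries). It was 319 ± 8.55 in cKO base, 357 ± 6.01 in cKO middle and 374 ± 3.20 in cKO apex. The libraries of cKO middle and cKO apex lay above those of every control group, whereas those of cKO base overlapped with control base and control middle. The 30 rows under 1 CPM were summed apart from the others. In the control, their sum was 6.84 to 7.16 CPM over the 3 libraries of the base, 5.26 to 6.21 over those of the middle and 5.83 to 6.41 over those of the apex. It was 7.42 to 9.19 CPM in cKO base, 14.9 to 15.3 in cKO middle and 20.6 to 21.2 in cKO apex. The 32 rows at 1 CPM or more summed to 319 ± 4.54, 323 ± 2.17 and 334 ± 3.53 CPM in control base, middle and apex, and to 311 ± 8.05, 342 ± 5.83 and 353 ± 3.05 CPM in the cKO. In bulk RNA, a change in the number of cells of a type and a change in RNA per cell cannot be told apart.

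A gene was called when its adjusted p (edgeR quasi-likelihood test, Benjamini-Hochberg over 17901 genes) was under 0.05 and its log2 fold change at least 1 in size. At the apex, 16 members were called higher in the cKO and 0 lower, beside 1.49% and 0.553% of all tested genes. In the middle, 11 were called higher and 0 lower, beside 2.15% and 0.575% of all genes. In the base, 5 were called higher and 0 lower, beside 2.51% and 0.514%. Because the members were chosen with these contrasts in view, nothing is read from those shares. The counts depended on the scale: with limma on log2(FPKM + 1), which compresses low levels, 0, 1 and 0 members were called higher in the apex, middle and base. The median log2 fold change of the members tested was 0.36 in the apex, 0.36 in the middle and 0.07 in the base, and that of all tested genes was 0.00, -0.00 and -0.02. Without a model, 29 of the 62 rows had all 3 cKO apex libraries above all 3 control apex libraries and 4 had all below, where 15.7% and 17.5% of all rows with counts did. The middle gave 29 above and 5 below (17.2% and 14.2% of all rows), and the base 7 and 7 (14.9% and 15.1%).

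Of the 16 members called in the apex and the 11 called in the middle, 8 were the same genes, which is 50% of the apex list and 72.7% of the middle list. They were Armc4, Ccdc108, Cfap52, Dnah5, Dnah9, Rsph4a, Ttc29 and Wdr63. Armc4, Ccdc108, Ttc29 and Wdr63 were called in all 3 regions, and Dnah6 in the apex and base. These comparisons use different pools in each region, so they share no library.

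Among the outer arm genes (8 rows), 3 were called higher in cKO apex, the same 3 in cKO middle, and 1 of them in cKO base. Dnah5, an outer arm heavy chain whose loss causes primary ciliary dyskinesia, had 3, 5 and 6 counts in the control apex libraries and 86, 72 and 82 in cKO apex. In the middle it had 1, 3 and 4 counts in the control and 52, 63 and 58 in the cKO. The groups were far apart in both regions, with fitted log2 fold changes of 4.18 ± 0.30 in the apex and 4.14 ± 0.37 in the middle. Here and below, the error of a fold change is its size divided by the square root of the test's F statistic. It is an approximate error, not a standard error taken from the fit. At low counts, as for Dnah5 and Ccdc108, it can be smaller than counting error alone. In the base, 4, 9 and 12 counts in the control overlapped with 16, 12 and 8 in the cKO, and the gene was not called (0.66 ± 0.40). Dnah9, the outer arm heavy chain of the distal part of respiratory cilia, stood at 0.491, 0.502 and 0.510 CPM in control apex and 2.07, 2.13 and 2.18 in cKO apex. In the middle it was at 0.346, 0.196 and 0.173 CPM in the control and 1.21, 1.18 and 1.78 in the cKO. Its log2 fold changes were 2.11 ± 0.25 and 2.5 ± 0.30, and in the base the groups overlapped at a mean of 0.459 CPM in the control and 0.418 in the cKO.

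Armc4, which helps to dock the outer arms on the doublet, was highest in cKO middle, with 42, 34 and 39 counts beside 9, 5 and 3 in control middle. The apex had 8, 9 and 14 counts in the cKO beside 3, 2 and 0 in the control, and the base 10, 12 and 10 beside 6, 6 and 2. No group overlapped with its control, and the log2 fold changes were 2.5 ± 0.34, 2.65 ± 0.57 and 1.32 ± 0.45. In the base the call was lost without cKO base replicate 2 (1.23) or control base replicate 3 (1.06). The other 5 outer arm rows were not called in any genotype comparison. Among them were the light chains Dnal1 (group means of 32.7 to 37.5 CPM) and Dnal4 (24.2 to 29.5), and the heavy chains Dnah11 (3.22 to 4.90), Dnah17 (2.18 to 2.68) and Dnah8 (2.89 to 4.71). Dnah17 and Dnah8 are best known from the sperm flagellum, Dnah11 from the proximal part of respiratory cilia.

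Of the 15 inner arm rows, 7 were called higher in cKO apex, 2 in cKO middle and 3 in cKO base. Dnah3, an inner arm heavy chain, was high in a single group. It had 6, 5 and 11 counts in control apex and 83, 77 and 82 in cKO apex, a log2 fold change of 3.55 ± 0.25, while in the middle 10, 12 and 12 counts in the control stood beside 15, 12 and 10 in the cKO (-0.11 ± 0.34). Its group means outside cKO apex ran from 0.255 to 0.553 CPM, beside 2.99 ± 0.123 in cKO apex. Dnah6, also an inner arm heavy chain, had another pattern. Its libraries were at 2.59, 1.91 and 1.5 CPM in control apex and 5.21, 5.63 and 5.96 in cKO apex, and at 1.83, 1.94 and 1.92 in control base and 4.44, 4.43 and 4.46 in cKO base. In control middle they were already at 4.36, 3.82 and 4.52 CPM, below the 6.28, 5.36 and 6.08 of cKO middle. The log2 fold changes were 1.51 ± 0.13 in the apex, 1.22 ± 0.14 in the base and 0.47 ± 0.11 in the middle, where the gene was not called.

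Dnah1 and Dnah10, heavy chains of other inner arm species, were called in the apex and in no other region. Dnah1 had 13, 12 and 9 counts in control apex and 44, 32 and 40 in cKO apex (1.87 ± 0.29), and in the middle, where the groups did not overlap either, the difference was 0.91 ± 0.28. Dnah10 had 24, 26 and 42 counts in control apex and 56, 68 and 55 in cKO apex. Its log2 fold change of 1.07 ± 0.21 lay at the threshold and fell under it without cKO apex replicate 2 (0.97), control apex replicate 1 (0.93) or control apex replicate 2 (0.97). Dnali1, the light intermediate chain of inner arms, had 13, 10 and 11 counts in control apex and 37, 38 and 29 in cKO apex (1.71 ± 0.30), while the base had 10, 23 and 7 in the control and 8, 7 and 8 in the cKO (-0.64 ± 0.39, not called). Whether the difference in Dnah1, Dnah10 or Dnali1 itself differs between regions was not tested.

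Wdr63, an intermediate chain of an inner arm, and Ttc29, a tetratricopeptide gene needed for sperm flagella, were close to 0 in most control libraries. Wdr63 had 0, 1 and 0 counts in control middle and 26, 16 and 20 in cKO middle, a ratio of 53.3 (95% interval 9.23 to 2140). In the apex, 8, 5 and 5 counts stood beside 18, 19 and 27, a log2 fold change of 1.92 ± 0.37. Its base counts were 2, 0 and 1 in the control and 6, 2 and 4 in the cKO, a ratio of 4.44 (1.20 to 24.5). Ttc29 had 3, 0 and 1 counts in control middle and 26, 21 and 23 in cKO middle (3.78 ± 0.51). In the apex it had 0, 1 and 0 counts beside 7, 7 and 12, a ratio of 27.7 (4.55 to 1134). In control base it had 0 counts in all 3 libraries and in cKO base 1, 2 and 3, which is at least 2.22-fold higher against a limit of 3 counts over the group. Both base calls rested on single libraries: the Wdr63 call was lost without cKO base replicate 1 or 3 or control base replicate 2 or 3 (1.44 to 2.11), and the Ttc29 call without cKO base replicate 3 (3.87) or control base replicate 1 or 2 (4.25 in each case).

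The remaining inner arm rows were not called by genotype. Dnah7a, Dnah7b and Dnah7c are near-identical copies whose reads the counting may have split, and their group means ran from 0.197 to 0.720, 5.53 to 6.83 and 0.457 to 0.621 CPM. Dnah2 ran from 1.70 to 2.59 CPM, and the symbol Dnah14 was on 3 rows that were not summed. Dnah12, which did not pass the filter, had 7, 9 and 9 counts in cKO apex and 1, 0 and 1 in control apex, a ratio of 13.3 (3.32 to 116), and at most 3 counts in any other group. Dnah2os is an antisense transcript at the Dnah2 locus that the symbol pattern also caught. Its group means ran from 0.173 to 0.403 CPM. It was lower in cKO apex (0.173) than in control apex (0.355), a log2 fold change of -1.02, but the libraries overlapped and it was not called. Whether the counting used strand is not given in the sources used here.

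**Figure D2:**
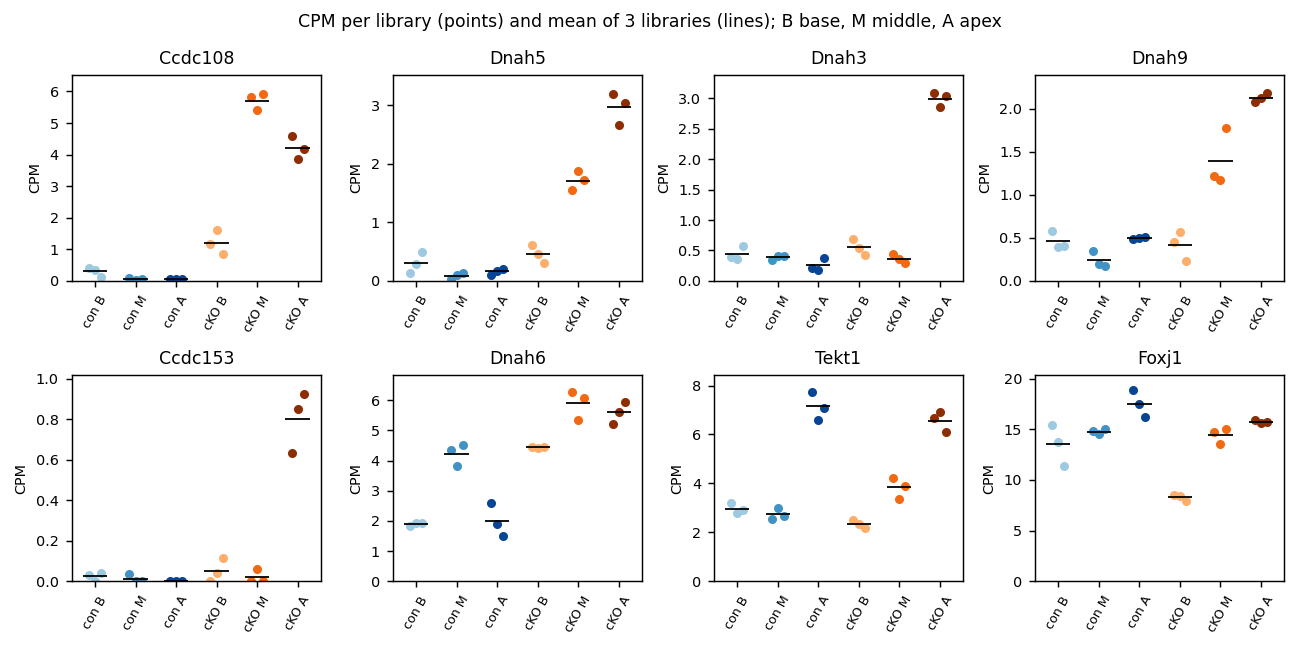
CPM (vertical axis) of 8 members in each library (points) of the 6 groups (horizontal axis), with the mean of 3 technical libraries as a line. Ccdc108 and Dnah5 are high in cKO middle and cKO apex, Dnah3 and Ccdc153 in cKO apex, Dnah6 is lowest in control base and control apex, Tekt1 is high in both apex groups, and Foxj1 is lowest in cKO base.

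Of the 4 assembly factor rows, Dnaaf1, needed to preassemble dynein arms, was the only one called by genotype. Its estimated counts were low, with 0.126, 0.0421 and 0.126 CPM in control apex and 0.313, 0.400 and 0.647 in cKO apex (log2 fold change 2.07 ± 0.62), and the call was lost without cKO apex replicate 3 (1.74). Dnaaf2, Dnaaf3 and Dnaaf5 had means of 8.63 to 12.3, 1.90 to 2.78 and 22.1 to 24.4 CPM over the groups. Of the 8 radial spoke rows, only Rsph4a, a component of the spoke head, was called. It had 0, 0 and 1 counts in control apex and 21, 20 and 19 in cKO apex, a ratio of 63.9 (95% interval 11.0 to 2563). In the middle, 0, 0 and 2 counts stood beside 12, 17 and 10, a ratio of 16.8 (4.34 to 143), and in the base 3, 3 and 1 counts overlapped with 8, 1 and 5. The other spoke head genes, Rsph1 and Rsph9, had group means of 1.02 to 1.43 and 8.20 to 9.5 CPM. Rsph3a and Rsph3b, near-identical copies that may share reads, ran from 6.96 to 7.89 and 4.63 to 5.36 CPM.

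No tektin was called by genotype. Tekt4, which did not pass the filter, had 0 counts in control apex and control middle, 8, 10 and 7 in cKO apex and 7, 8 and 6 in cKO middle. These are at least 8.87-fold and 6.02-fold higher against a limit of 3 counts over the control group, while control base (0, 2 and 3) and cKO base (3, 1 and 0) overlapped.

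Among the 20 Cfap rows with Ccdc108 and Ccdc153, 4 were called higher in cKO apex, 5 in cKO middle and 1 in cKO base. Ccdc108, named Cfap65 in GENCODE M21 and known from the sperm flagellum, lies on the minus strand of chr1:74902071-74935599 (GRCm38). It had 2 counts in each control apex library and 123, 104 and 113 in cKO apex. In the middle it had 3, 1 and 2 counts in the control and 195, 182 and 200 in the cKO, and in the base 13, 11 and 3 in the control and 30, 42 and 22 in the cKO. All 3 regions were free of overlap, and the log2 fold changes were 5.85 ± 0.31 in the apex, 6.27 ± 0.28 in the middle and 1.93 ± 0.31 in the base. Each of these calls was kept when any library was left out. The group means of Ccdc108 ran from 0.0691 to 0.299 CPM in the controls and from 1.21 to 5.71 CPM in the cKO.

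Ccdc153, a coiled-coil gene of multiciliated cells, had 0 counts in control apex and 17, 23 and 25 in cKO apex, at least 23.1-fold higher against a limit of 3 counts over the group. No other group exceeded 4 counts in all. Cfap52, a protein inside the doublet microtubules, had 2, 8 and 7 counts in control apex and 23, 21 and 15 in cKO apex, and in the middle 3, 3 and 4 beside 57, 32 and 32. Its log2 fold changes were 1.88 ± 0.42 and 3.32 ± 0.41, and cKO middle replicate 1 was the highest library of all. Cfap126, which takes part in placing basal bodies, was called in the apex at 1.08 ± 0.27, with 21, 15 and 17 counts in the control and 36, 38 and 30 in the cKO, but not without control apex replicate 2 (0.98). Cfap53, Cfap57 and Cfap61 were called in the middle at 1.37 ± 0.51, 1.40 ± 0.46 and 1.45 ± 0.45, on 31 to 52 counts in cKO middle and 10 to 16 in control middle. The call of Cfap53 was lost without cKO middle replicate 1 (1.39) or 3 (1.17) or any control middle library (1.12 to 1.52), that of Cfap57 without control middle replicate 1 (1.35) or 2 (1.07), and that of Cfap61 without cKO middle replicate 2 (1.20) or control middle replicate 1 (1.07). The most abundant genes of this family were not called: Cfap36 ran from 48.6 to 54.8 CPM over the group means, Cfap20 from 28.6 to 39.3, Cfap97 from 31.8 to 36.9 and Cfap43, a tether of inner arms, from 7.52 to 10.6.

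Foxj1 was not called in any genotype comparison. Its libraries were at 18.9, 17.5 and 16.2 CPM in control apex and 15.9, 15.6 and 15.8 in cKO apex, and at 14.8, 14.5 and 15 in control middle and 14.8, 13.5 and 15 in cKO middle. In the base, the cKO libraries were lower, at 8.55, 8.39 and 7.93 CPM beside 15.4, 13.7 and 11.4 in the control. The log2 fold changes were -0.13 ± 0.07, -0.05 ± 0.07 and -0.73 ± 0.08, and none reached the fold threshold.

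**Figure D3:**
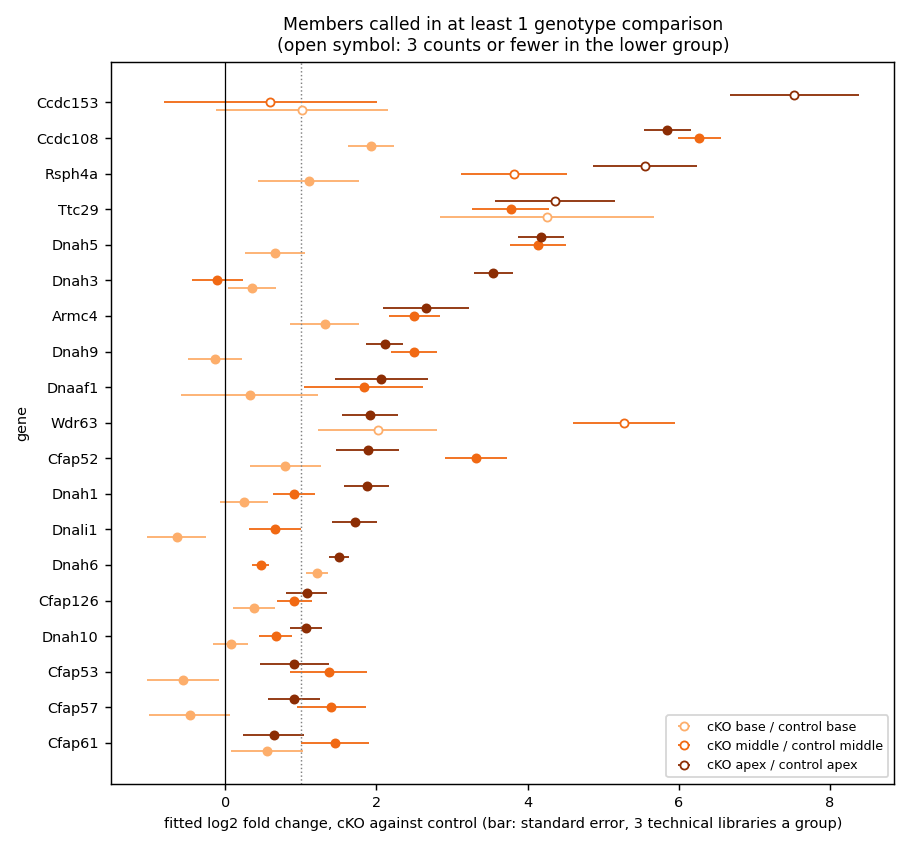
Fitted log2 fold change of cKO against control (horizontal axis) in base, middle and apex for the 19 members called in at least 1 region. The bars, labelled standard error in the picture, are the fold change divided by the square root of the F statistic. At low counts they can be smaller than counting error. Open symbols mark comparisons with 3 counts or fewer in the lower group, where the fitted value depends on the prior count; the dotted line marks the threshold of 1, and Ccdc108 and Dnah5 lie near 4 to 6 in both the apex and the middle.

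Within the control cochlea, few members were called between regions. From base to apex 2 were called higher and 3 lower, beside 2.28% and 3.20% of all tested genes. From base to middle 1 was called higher and 3 lower (1.53% and 1.20%), and from middle to apex 3 higher and 3 lower (2.08% and 3.22%). Counted without a model, 8 rows had all control apex libraries above all control base libraries and 6 below (26.2% and 13.7% of all rows with counts). Control middle gave 4 above and 9 below base (17.8% and 10.7%), and control apex 11 above and 5 below middle (23.8% and 13.2%). These comparisons share control pools with each other and with the genotype comparisons. Tekt1, a filament protein of the doublet, had 222, 190 and 204 counts in control apex, beside 99, 86 and 71 in control base and 74, 87 and 77 in control middle. The apex libraries stood clear of the others, with log2 fold changes of 1.20 ± 0.11 against the base and 1.34 ± 0.11 against the middle, and cKO apex was as high, at 179, 187 and 165 counts. Cfap44, a tether of inner arm dyneins, ran the other way, with 9.99, 9.57 and 9.25 CPM in control apex, beside 19.9, 21 and 20.8 in control base and 20.7, 21.4 and 19.2 in control middle. Its log2 fold changes were -1.17 ± 0.06 and -1.13 ± 0.06. In the cKO it was at 18.4 to 21.9 CPM in the base, 15.8 to 17.0 in the middle and 13.6 to 15.9 in the apex.

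Ccdc108 was lower in control apex and control middle than in control base (-2.16 ± 0.58 and -2.13 ± 0.58), on 6, 6 and 27 counts in all. Wdr63 was higher in control apex than in control base, a count ratio of 6.02 (95% interval 1.76 to 31.9), and than in control middle, a ratio of 18.2 (2.87 to 757). Dnah6 was higher in control middle than in control base (1.13 ± 0.14), and lower in control apex than in control middle (-1.13), which fell short of the threshold without control apex replicate 3 (-0.96). Dnah7a was called lower in control apex than in control base (-1.41). Dnah5 (-1.64) and Cfap53 (-1.39) were called lower in control middle than in control base. Armc4 was called lower (-1.72) and Cfap57 higher (1.25) in control apex than in control middle. All 5 of these calls were lost when single libraries were left out, and for each gene more than 1 library had this effect. The fold change smallest in size came without control apex replicate 1 for Dnah7a (-0.93) and Cfap57 (0.74). It came without control base replicate 3 for Dnah5 (-1.18) and Cfap53 (-0.75), and without control apex replicate 3 for Armc4 (-1.17).

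Upstream sequence was examined for members that were called by genotype and members that were not. RefSeq promoter windows (GRCm38.p6, 250 bases before to 50 after a start) were matched to 50 of the 62 rows, and not to Armc4, Ccdc108, Cfap53, Cfap54, Cfap97, Dnaaf1, Dnah2os, Dnah3, Foxj1, Rsph1, Rsph10b and Rsph4a. Motifs known from ciliary genes were searched on both strands: the X-box core GTTGCCA, bound by RFX factors, the paired X-box GTTNCC followed within 0 to 3 bases by GGNAAC, which can overlap the core, and the forkhead core GTAAACA. The 250 bases upstream of 4 members are printed, with any X-box core in capitals: Dnah5 (chr15:28203516-28203765, plus strand) and Ccdc153 (chr9:44240427-44240676, plus strand), called in cKO apex, and Tekt1 (chr11:72361883-72362132, minus strand) and Cfap44 (chr16:44394549-44394798, plus strand), which differed between control regions but were not called by genotype.
Dnah5: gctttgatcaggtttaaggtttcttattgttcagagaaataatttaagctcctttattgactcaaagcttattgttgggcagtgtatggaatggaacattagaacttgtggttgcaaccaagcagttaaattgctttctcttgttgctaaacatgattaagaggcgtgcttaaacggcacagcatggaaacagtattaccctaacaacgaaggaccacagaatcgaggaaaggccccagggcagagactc
Ccdc153: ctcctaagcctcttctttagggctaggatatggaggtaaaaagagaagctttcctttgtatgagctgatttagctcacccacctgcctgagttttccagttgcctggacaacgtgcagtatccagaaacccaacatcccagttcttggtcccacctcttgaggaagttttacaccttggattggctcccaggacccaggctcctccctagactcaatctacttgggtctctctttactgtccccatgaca
Tekt1: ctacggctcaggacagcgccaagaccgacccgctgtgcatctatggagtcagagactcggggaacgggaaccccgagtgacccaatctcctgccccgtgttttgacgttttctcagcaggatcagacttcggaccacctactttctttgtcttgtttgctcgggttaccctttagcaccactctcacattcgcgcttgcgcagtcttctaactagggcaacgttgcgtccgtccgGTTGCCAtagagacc
Cfap44: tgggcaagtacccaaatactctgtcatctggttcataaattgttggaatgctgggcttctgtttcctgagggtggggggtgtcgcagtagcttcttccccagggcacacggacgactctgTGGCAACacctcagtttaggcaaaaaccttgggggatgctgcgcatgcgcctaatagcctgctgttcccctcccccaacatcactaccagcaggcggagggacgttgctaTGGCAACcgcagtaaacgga
Tekt1 has 2 windows in the table: the one printed holds the X-box core close to its start, and the other holds none of the motifs. The sequence of Cfap44 holds the core on the opposite strand at 2 places, and those of Dnah5 and Ccdc153 hold none of the 3 motifs. Over all matched rows, 8 of 50 (16%) had an X-box core. This stands beside 5.02% of the 27025 genes and 4.38% of the 32851 windows in the RefSeq table. The member shares are of rows, not genes: the 3 rows of Dnah14 share 1 window without a motif, counted 3 times. The paired X-box was in 0 of 50, beside 0.936% of genes, and the forkhead core in 4 of 50 (8%), beside 4.05%. Of the 11 matched members called in cKO apex, 1 (Dnah10) had an X-box core and 0 a forkhead core; of the 30 tested and not called, 6 and 3 had them. Most members not called thus lacked the X-box core too, and the 4 printed sequences do not stand for called and uncalled members. These are letter matches in a fixed window and say nothing of binding.

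Axoneme genes that the symbol rule did not catch were taken from 5 further lists of 50 genes, 44 of them tested. In the apex 10 were called higher in the cKO and 0 lower, in the middle 14 and 0, and in the base 2 and 0. Of all tested genes, 1.49%, 2.15% and 2.51% were called higher in the apex, middle and base, and 0.553%, 0.575% and 0.514% lower. The same shares stand beside the counts of every list below. The lists were drawn up with earlier results known, and a gene that passes the filter only where it is high had to differ. Nothing is therefore read from these counts. Of the central apparatus, Spag16 had 3 counts over the 3 control apex libraries and 52 over those of cKO apex, a ratio of 18.5 (95% interval 5.97 to 92.3), and Spef2 rose by 1.23 ± 0.31. Hydin, a giant protein of the central pair, was not called by genotype: it stood at 2.97, 3.98 and 7.57 CPM in control base, middle and apex and 2.26, 4.47 and 7.83 in the cKO. Of the nexin-dynein regulatory complex and the proteins that set its spacing, 4 of 11 tested genes rose in cKO apex and 5 in cKO middle. Tcte1 had 3 counts in control apex and 63 in cKO apex (ratio 22.4, 7.31 to 111), Iqca 2 and 39 (20.8, 5.37 to 177) and Drc7 rose by 2.94 ± 0.45. The dynein light chain gene Dynlrb2 (1.72 ± 0.32), the assembly factor Zmynd10 (1.02 ± 0.36) and the further cilium and flagellum genes Ccdc146 and Efcab1 (2.19 ± 0.42 and 2.15 ± 0.51), also rose in cKO apex.

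Other genes of ciliated cells and genes of intraflagellar transport were counted in the same way, and nothing is read from these counts either. A list of 30 other ciliated cell genes was not limited to genes outside the axoneme, and 24 of them were tested. Of these, 8 were called higher in cKO apex, 6 in cKO middle and 1 in cKO base, with 0 lower. Sntn, a protein of the ciliary tip, had 0 counts in control apex and 33 in cKO apex (at least 11.7-fold higher), Nme9 0 and 40 (at least 14.2-fold), and Cdhr3, a cadherin of airway ciliated cells, 1 and 72 (ratio 76.6, 13.3 to 3068). Sntn had 0 counts in cKO middle and Cdhr3 had 2, while Nme9 had 14 there beside 1 in control middle (ratio 12, 1.83 to 509). Of 24 genes of intraflagellar transport, the traffic that primary and motile cilia both use, 0 were called in any genotype comparison. Their median log2 fold changes were -0.03 in the apex, -0.01 in the middle and -0.07 in the base, and the sum ran from 744 ± 6.11 CPM in cKO base to 872 ± 9.10 in control apex. Of 14 genes of the programme that starts multiciliation, 10 were tested. Trp73, which acts upstream of Foxj1, was called, with 2 counts in control apex and 33 in cKO apex (ratio 17.6, 4.49 to 151) and 1 and 30 in the base (33.3, 5.54 to 1360). The early regulators Gmnc and Mcidas reached 0.0742 and 0.0371 CPM at most, and the RFX factor gene Rfx3 ran from 13.2 to 15.4 CPM.

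Markers of other tissues that carry motile cilia were followed beside these genes. The airway secretory and mucosal list (21 genes) summed to 370.0 to 377 CPM in the cKO apex libraries and to 24.7 to 25.0 in control apex. Of its 12 tested genes, 8 were called higher in cKO apex, beside 1.49% of all tested genes. Some of these were high in cKO apex alone, so that passing the filter already required a difference. Sec14l3 was at 2.66 CPM there and at most 0.193 in any other group, and Cyp2a5 at 4.44 and at most 0.0899. Cyp2f2, a cytochrome of airway club cells, rose by 7.34 ± 0.18, Cyp2a5 by 6.47 ± 0.37 and Bpifa1, a secreted protein of upper airway, by 5.61 ± 0.03, and Sec14l3 had 0 counts in control apex and 215 in cKO apex (at least 76.3-fold higher). In the middle the list summed to 46.2 to 48.5 CPM in the cKO and 37.5 to 40.6 in the control, with 3 genes called higher, Bpifa1 and Cyp2f2 among them (4.30 ± 0.12 and 3.33 ± 0.30). Ltf, the lactoferrin gene, carried most of these middle sums, at 33.3 CPM in the control and 27.8 in the cKO. In the base the list summed to 141 to 142 CPM in the cKO and 139 to 144 in the control. There Bpifa1 stood at 109 CPM in the control and 88.6 in the cKO, and Ltf, the 1 gene called higher, at 13.7 and 37.4. The 30 low members summed to 6.96 CPM in control base and 15.1 in cKO middle, where Bpifa1 was at 109 and 10.8 CPM. Scgb1a1, the club cell secretoglobin, stayed at or under 0.0697 CPM and Muc5ac at or under 0.0494 in every group, while the mucin gene Muc5b stood at 0.0349 CPM in control apex and 0.581 in cKO apex. The part of airway tissue in the members' differences was not tested.

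Markers mostly of the choroid plexus (10 genes) summed to 188 to 197 CPM in control apex and 222 to 234 in cKO apex, with 0 called there. Kl (59.2 and 102 CPM) and Clic6 (44.5 and 58.7) carried that difference, while Ttr stood at 29.4 and 21.1, the list's median log2 fold change was -0.29 and its summed FPKM 101 and 97.2. Prlr was called higher in the middle (1.37 ± 0.49) and base (1.13 ± 0.35). Testis germ cell genes, which share flagellar proteins with cilia, were almost absent: the 10 genes summed to at most 0.445 CPM in any library, Akap4 and Pgk2 had 0 counts throughout, and 0 of 10 passed the filter. The olfactory list (8 genes) summed to 76.0 to 76.9 CPM in control apex and 58.8 to 62.2 in cKO apex, where Gng13 was lower (-1.89 ± 0.70), while in the base it was higher (4.17 ± 0.26). Omp, its defining marker, stayed at or under 0.505 CPM. Hair cell genes (15) summed to 659.9 to 671 CPM in control apex and 590.5 to 597 in cKO apex with 0 of 14 tested called, and to 262 to 267 and 383 to 387 CPM in control and cKO middle where Gfi1 was among the genes called higher (1.01 ± 0.11). A list of otolith membrane and vestibular genes, drawn up after the values had been seen, summed to 135 to 139 CPM in control middle and 282 to 288 in cKO middle. There 5 of its 9 genes were called higher, among them Tecta (4.05 ± 0.11) and Otol1 (3.03 ± 0.19), and 0 in cKO apex and 2 in cKO base. The list was also at 266 CPM in control apex and 255.9 to 263 in cKO apex. The part of vestibular tissue in the members' differences was not tested.

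**Figure D4:**
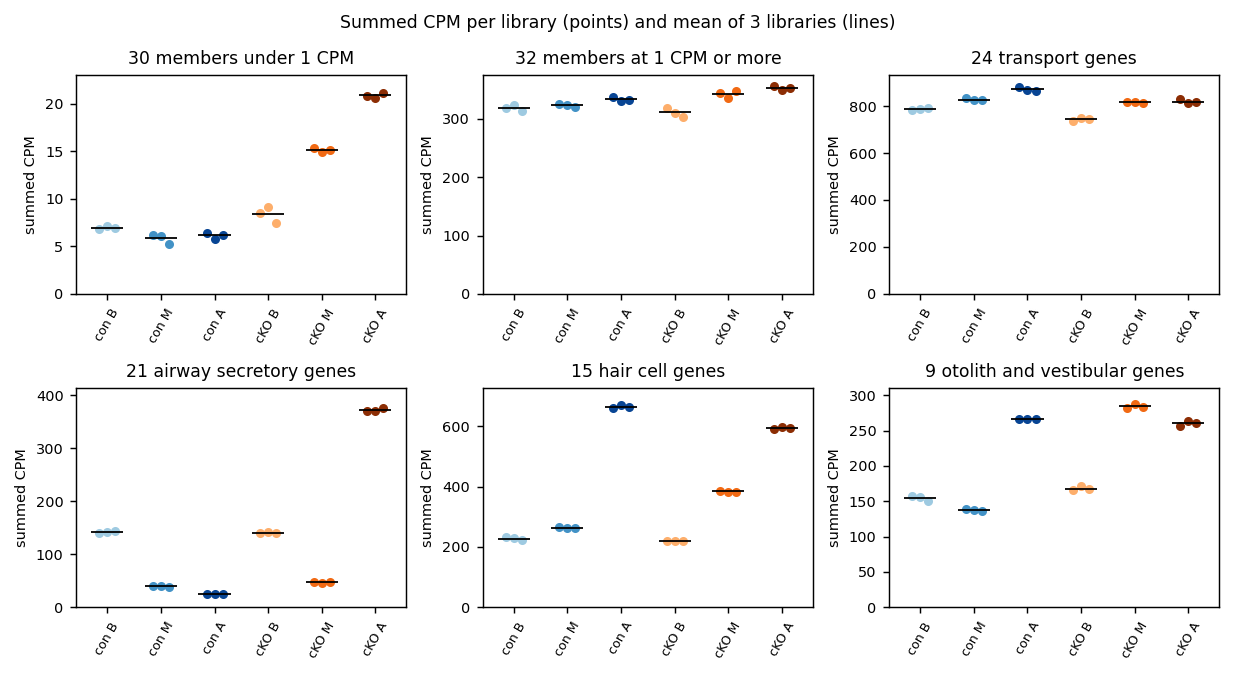
Summed CPM (vertical axes, from 0) of 6 gene groups in each library (points) of the 6 sample groups (horizontal axes; B base, M middle, A apex), with the mean of 3 technical libraries as a line. The 30 members under 1 CPM are highest in cKO apex (20.6 to 21.2) and cKO middle (14.9 to 15.3), and the airway genes in cKO apex with both base groups next. The transport genes run from a mean of 744 CPM in cKO base to 872 in control apex.

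The genes most like the members' sum over the 6 groups were sought among 15144 other genes at 1 CPM or more. By Pearson correlation of log2(CPM + 0.5) over the 6 group means, the 10 highest were 2410002F23Rik (0.99), Ints8, Basp1, Jag2, Fam71e1, Pde12, Caml, Smoc2, Abhd17c and AA414768 (0.98). These correlations over 6 points are a description. The sum follows the abundant members, so it does not represent the low ones.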

How the data were processed

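Cochlear RNA was sequenced in 18 technical libraries, 3 from each of 6 pools. Per the submitters' processing notes, STAR 2.5.2b and Cuffdiff 2.2.1 were used with GRCm38 (mm10); the counting tool is not given in the sources used here. The deposited table holds estimated counts per gene, of which 89.2% to 89.9% of values per library were whole, and the authors' FPKM values.

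CPM was computed from the counts and the library totals (24446760 to 33732726). Counts were rounded and fitted with edgeR 4.0.16 (R 4.3.3): filterByExpr, TMM factors of 0.977 to 1.03, and 1 quasi-likelihood fit of 6 groups with 12 residual degrees of freedom, tested first on simulated data. Genes were called at an adjusted p under 0.05 and a log2 fold change of at least 1 in size. Libraries of a group varied slightly more than counting noise (chi-square per degree of freedom 1.19 to 1.59), so they were kept as 3 technical libraries, and p-values measure only that spread. Alternatives used DESeq2 1.42.0, limma 3.58.1 on log2 FPKM, other filters and left-out libraries.

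The members and gene lists were chosen with earlier results of these data known. Named were the genes added to the members by name, the 15 most abundant members, up to 6 called members per direction and comparison, the 3 list genes with the largest called change in cKO apex, 10 genes of like pattern, members beside the low-count filter and members on several rows. Other genes, including list genes named in other groups, were named after their values were seen. 1 of the list genes is left out of the text and not reported here.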

Additional observations from a re-analysis of the deposited data

Results flagged for a closer look

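For 4 members, all 3 cKO libraries lay above all 3 control libraries in 1 region and below them in another, and the difference between regions was not tested. Cfap44 was higher in cKO apex (log2 fold change 0.63) and lower in cKO middle (-0.34), a gap of 0.97. Tekt1 was higher in cKO middle (0.47) and lower in cKO base (-0.35), a gap of 0.82. Dnal4 was higher in cKO apex (0.17) and lower in cKO middle (-0.13), a gap of 0.29, and Dnaaf5 likewise (0.16 and -0.10), a gap of 0.26. None of these 8 changes reached the fold threshold.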

How the results depend on the processing

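The pools are not replicated, so every alternative tests technical stability only. In the apex, the 16 members called higher became 0 with limma on log2(FPKM + 1) and 26 with no fold threshold, and 14 to 17 with any library left out; the 0 lower became 2 with no fold threshold and 0 to 1 with a library left out (1 without control apex replicate 1). In the middle, the 11 higher became 7 with limma on log2(FPKM + 0.1), 1 on log2(FPKM + 1) and 25 with no fold threshold, and 9 to 12 with a library left out; the 0 lower became 3 with no fold threshold. In the base, the 5 higher became 2 with the compared groups fitted alone, 3 with DESeq2, 1 on log2(FPKM + 0.1), 0 on log2(FPKM + 1), and 3 to 4 with a library left out (3 without cKO base replicate 3 or control base replicate 2 or 3); the 0 lower became 7 with no fold threshold. A pseudocount of 1 FPKM exceeds most members' levels and compresses their changes by construction.

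Between control apex and base, the 2 higher became 1 (groups alone), 1 (FPKM + 0.1), 0 (FPKM + 1) and 6 (no fold threshold), and the 3 lower became 1 (groups alone), 0 (FPKM + 1), 5 (no fold threshold) and 2 to 5 with a library left out (5 without control apex replicate 3). Between control middle and base, the 1 higher became 0 with either FPKM scale and 1 to 2 with a library left out (2 without control middle replicate 2), and the 3 lower became 0 (groups alone or either FPKM scale), 5 (no fold threshold) and 1 to 3 with a library left out (1 without control base replicate 3). Between control apex and middle, the 3 higher became 1 (groups alone or either FPKM scale), 6 (no fold threshold) and 2 to 3, and the 3 lower became 1 (FPKM + 0.1), 0 (FPKM + 1) and 1 to 3 (1 without control apex replicate 3).

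The summed CPM became 333 in control base, 331.5 in control apex and 369.9 in cKO apex with TMM library sizes, so control apex no longer exceeded control base. Without Ccdc108 cKO apex was 369. As FPKM relative to the mean over groups, control base was 0.975, control apex 1.01 and cKO middle 1.01. Ccdc153, not called in either region, changed sign in the middle without cKO middle replicate 2 (-1.86, and up to 2.47 without other libraries) and in the base without cKO base replicate 3 (-0.23, and up to 1.56). Of 52 log2 fold changes examined, 4 kept their direction and their side of the threshold under every alternative. They were those of Ccdc108 in the middle, Tekt1 between control apex and middle, and Foxj1, not called, in the apex and middle. The alternatives included limma on log2(FPKM + 1), which by itself left 0, 1 and 0 members called higher in the apex, middle and base. The cause of the other changes was not tested.

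Replicate numbers did not pair the samples: the correlation of deviations was -0.11 to 0.0722 over 45 same-numbered pairs. With the replicate block, 16, 11 and 5 members were called higher in cKO apex, middle and base, and the 3 lower in control middle against base became 2. Depth limits genes near 3 counts a library.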

Other observations

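Ccdc108 stood apart from its neighbours on chromosome 1. The nearest genes, Cryba2 and Mir375 on one side and Ihh on the other, and the antisense transcript Gm15841 inside it, did not share its pattern. Gm15841 and Mir375 had 0 counts, Cryba2 stayed at or under 0.0351 CPM, and Ihh, a hedgehog ligand gene, had group means of 0.679 CPM in cKO apex and 1.23 in cKO middle beside 1.08 and 1.28 in the controls. Nhej1, farther along, ran from 2.65 to 3.43 CPM.

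Patterns like that of single members were also looked for, a choice made after the data were seen. By Pearson correlation over the 6 group means, the genes most like Dnah5 included Bmper (0.99) and, from the same family of axoneme genes, Cfap45 (0.99) and Dnah10 (0.99). Dnah6 was closest to Cask (0.98) and Mns1 (0.98), a gene needed for motile cilia and sperm flagella. Dnah3 was closest to Bola1 (0.996) and Bpifb4 (0.992), a relative of the airway gene Bpifa1. These values over 6 group means of technical libraries are a description.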
